A study of Mus musculus with 36 samples.

Results

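Microglia from Usp18 knockout (KO) mice and from wild-type (WT) mice were compared after 24 h of interferon beta (IFN-b). The comparison rests on 4 Affymetrix arrays, 2 of KO cells and 2 of WT cells, of 36 arrays in the series. They were chosen by their titles and by deposition run: the first 12 microglia arrays, called set 1 here, hold KO and WT cells at 0, 6 and 24 h, and the 24 h arrays of that set were taken. All 4 samples were primary mouse microglia grown in DMEM with fetal calf serum and given 500 U/ml IFN-b, so the WT samples were treated cells too. The KO cells came from mice labelled Usp18ko and the WT cells from mice labelled WT. The labels give neither strain, age nor sex, nor the part of the gene that is missing, and call the 2 samples of each group biological replicates. For comparison the report also uses the untreated and 6 h samples of both genotypes from set 1, and 24 h samples of C61A and WT microglia from a second set of 12 arrays. It also uses BV-2 cells, a mouse microglial line, that received a control siRNA.

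Type I interferons such as IFN-b bind a receptor made of Ifnar1 and Ifnar2. The kinases Jak1 and Tyk2 then pass the signal to transcription factors that bind interferon-stimulated response elements in promoters. USP18 is itself induced by this pathway. It binds the receptor subunit IFNAR2 and damps signalling, and it is also the protease that removes the ubiquitin-like protein ISG15 from its targets. In the C61A variant the active-site cysteine of the protease is replaced, and binding to the receptor is retained. Microglia are the resident macrophages of the brain, and mice that lack USP18 in these cells are known to develop a lasting interferon response there.

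Values are the deposited ones, on a log2 intensity scale as judged from their range, and each gene is read by its probe set with the highest mean. Errors are standard errors (SE) of a limma fit over all 24 microglia arrays, with p-values adjusted by Benjamini-Hochberg over 7960 genes. A gene is called higher or lower, and said to rise or fall, where its adjusted p is under 0.05. Genes are grouped in lists by function, and beside a list stand in brackets its counts with KO replicate 1, KO replicate 2, WT replicate 1 and WT replicate 2 left out, in that order. These lists and their members were chosen with earlier results of these data known, so their counts do not test a theme. Over all genes 11.3% rose and 17.7% fell, and a list's count near these shares is no result about the list. These shares belong to the fit of all 24 arrays. With 1 array left out fewer of all genes rose and fell, so the bracketed counts have a lower background. A permutation of 2 against 2 arrays cannot give an exact two-sided p under 0.333, so the tests rest on the spread pooled over all groups.

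Replicates correlated at 0.974 (KO) and 0.982 (WT) over genes tested, against 0.877 to 0.886 between the genotypes. General microglial and macrophage genes were high on all 4 arrays. The growth factor receptor gene Csf1r lay at 12.46 and 12.63 in KO and 13.29 and 13.08 in WT, and the complement gene C1qa at 13.02 and 13.07 in KO and 13.35 and 13.33 in WT. Tmem119, a marker of resting microglia in the brain, lay at 4.77 and 5.05 in KO and 5.50 and 5.13 in WT, below the lowest array median of 5.62, so this defining marker was not above the array median in either group. The purinergic receptor gene P2ry12, another such marker, was measured at 8.50 and 8.52 in KO and 8.29 and 8.03 in WT. The astrocyte gene Gfap was low throughout (4.41 and 4.59 in KO and 4.76 and 4.72 in WT). Neuron markers stood apart in KO replicate 2. All 5 neuron markers tested, of 9 listed, were higher on both KO arrays than on both WT arrays (30.2% of all genes were so). Their mean level was 5.24 and 7.07 on the KO arrays and 4.75 and 4.03 on the WT arrays, and none was called. Tubb3, a tubulin of neurons, lay at 6.16 and 8.12 in KO and 5.87 and 4.82 in WT, and the synaptic Snap25 at 3.76 and 6.23 in KO and 3.32 and 3.01 in WT. In such bulk samples fewer cells of a type and less RNA per cell cannot be told apart. The part of neuronal RNA in the results was not tested, and the bracketed counts of the lists include those without KO replicate 2. The cultures also differed in sex-linked transcripts: Xist lay at 10.33 and 9.08 in KO and 10.66 and 5.41 in WT, and the Y-linked Kdm5d at 2.98 and 4.96 in KO and 4.41 and 6.35 in WT. The part of that difference was not tested either.

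The spread also takes in 2 arrays of set 2 that go against their labels in interferon genes, called the doubted arrays here. On the array labelled untreated WT replicate 1 Mx1 lay at 12.37, against 4.64 in replicate 2, and on the array labelled 6 h C61A replicate 2 at 8.62, against 12.39 in replicate 1. Without these arrays 33.2% of all genes were called between KO and WT at 24 h.

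Usp18 itself separated the groups. It lay at 5.92 and 5.97 on the KO arrays and 11.15 and 10.71 on the WT arrays, without overlap. It fell by 4.99 ± 0.91 (adjusted p = 0.00147), which is 31.7-fold. Before treatment it lay at 4.40 and 3.77 in KO and 5.68 and 5.99 in WT, and at 6 h at 6.42 and 5.85 in KO and 12.56 and 12.41 in WT. The KO signal was below the WT signal on every array of each time. Whether the probe set lies in the deleted part cannot be read from the labels.

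At 24 h, loss of Usp18 went with a broad change. Of 7960 genes 2313 were called (29.1%), 903 higher (11.3%) and 1410 lower (17.7%), and the median change over all genes was -0.07. Among large changes increases prevailed. By at least 2 log2 units 185 genes rose and 84 fell, and by at least 1 unit 557 rose and 708 fell. Among the largest increases were chemokines, inhibitors of cytokine signalling and inflammatory mediators, and among the largest decreases the prostaglandin-degrading enzyme Hpgd, the lipase Lpl and the mannose receptor Mrc1. Fitted on the 12 arrays of set 1 alone, 2404 of 7528 genes were called (31.9%). Of these, 1976 were also called in the 24-array fit, in the same direction. On set 1 alone 14% of all genes rose and 17.9% fell, and list counts on set 1 are to be read beside these shares. With 1 array left out the count was 1012 without KO replicate 1, 1478 without KO replicate 2, 1081 without WT replicate 1 and 1220 without WT replicate 2. For 395 called genes the mean of the lower group lay below the lowest array median of 5.62, where an array may no longer resolve a decrease.

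**Figure D1:**
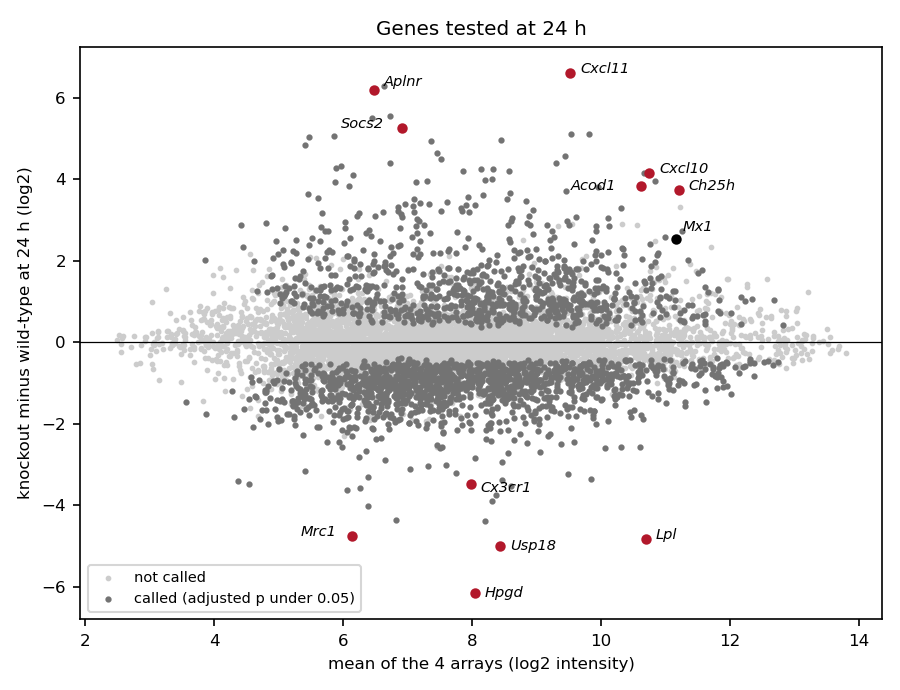
Change between KO and WT at 24 h (vertical axis, log2) against the mean of the 4 arrays (horizontal axis, log2 intensity) for the 7960 genes tested. Dark grey points are the 2313 called genes. Genes with a name are red where called and black (Mx1) where not, and Cxcl11 at 6.60 and Hpgd at -6.15 are the extremes.

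The chemokine Cxcl11, which attracts activated T cells, had the largest increase. It lay at 12.94 and 12.70 in KO and 6.17 and 6.27 in WT, a rise of 6.60 ± 1.07 or 97.1-fold (adjusted p = 0.000765). Next came Sectm1a, which encodes a secreted and membrane protein that can co-stimulate T cells, at 9.83 and 9.72 against 3.75 and 3.21 (6.30 ± 0.70, adjusted p = 0.000115). The apelin receptor gene Aplnr, best known from blood vessels, lay at 9.30 and 9.84 in KO and 2.92 and 3.84 in WT (6.19 ± 0.75, adjusted p = 0.00017). For both genes the WT arrays lay below the lowest array median. The cytokine-like Fam3b rose by 5.56 ± 0.71 and Plac8, a gene of monocytes and granulocytes, by 5.49 ± 0.65, from 3.73 and 3.67 in WT to 9.13 and 9.25 in KO. Of 4 measured monocyte and granulocyte markers 1 rose (1, 1, 1 and 1), Plac8, and their mean level was 6.18 and 6.87 on the KO arrays and 4.74 and 4.82 on the WT arrays. The part of such cells was not tested. Other members of the 20 largest increases were the coagulation factor gene F8 (4.97 ± 0.58), the scaffold Akap12 (4.95 ± 0.53), the transcription factors Lhx2 (5.06 ± 1.11), Plagl1 (4.39 ± 1.49) and Klf4 (4.27 ± 0.54), the spindle protein Tpx2 (4.57 ± 0.66), the RNA helicase Ddx4 (4.50 ± 1.11), the stress-induced Gadd45g (4.39 ± 0.74) and the endothelial lipase Lipg (4.33 ± 0.50). The call of Plagl1 ended without any 1 of the 4 arrays, at 4.14 to 4.63. Also lost was that of Plagl1 without the filter (4.39). Calls ended for Ddx4 without WT replicate 2 (4.27).

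**Figure D2:**
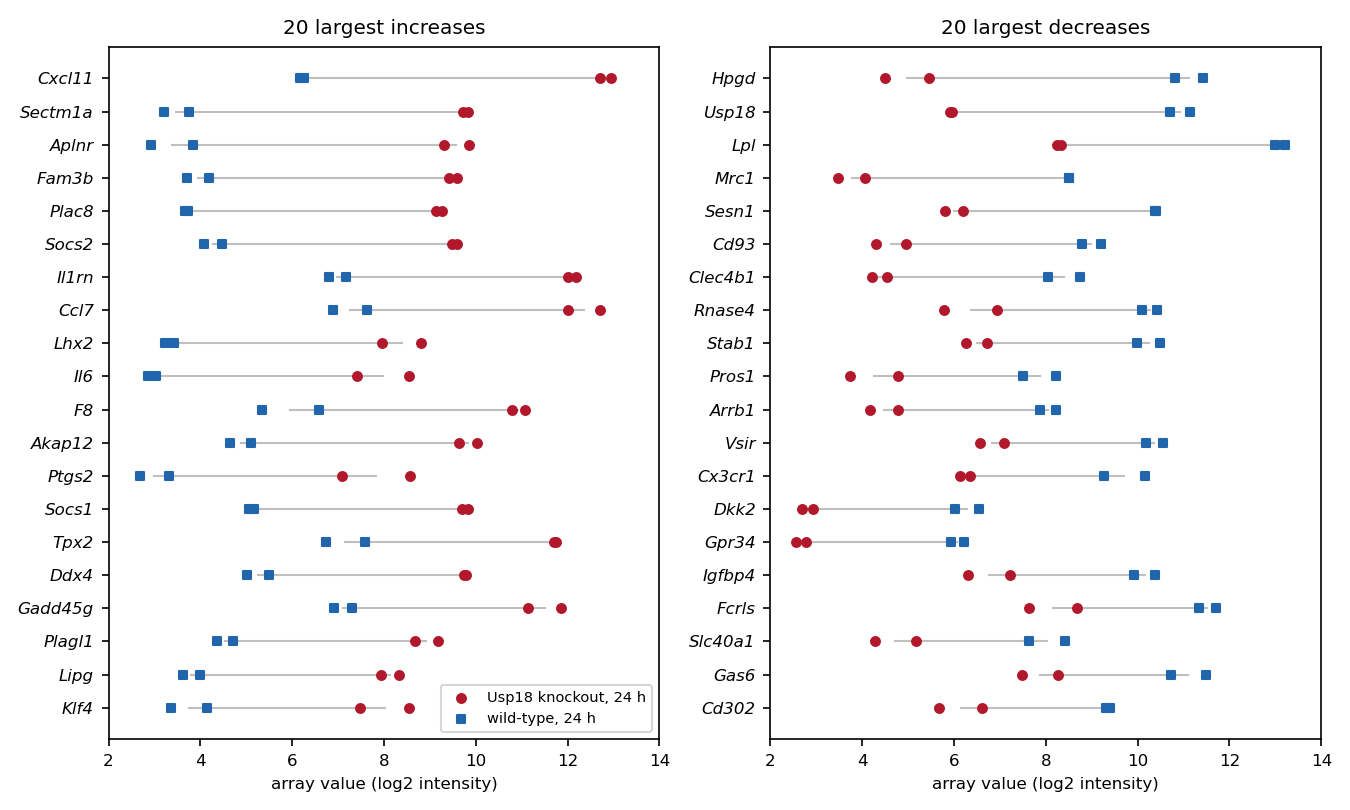
Array values (log2 intensity) of the 20 called genes with the largest increase and the 20 with the largest decrease in KO at 24 h. Circles are the 2 KO arrays and squares the 2 WT arrays, with a grey line between the group means. In no gene shown do the groups overlap, since genes were picked for that.

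Most antiviral genes lay higher on both KO arrays, by less than the leading genes. In the 24-array fit, of 28 measured antiviral genes 2 rose (0, 1, 1 and 1) and 1 fell (0, 1, 1 and 1), with a median of 0.82. Both KO arrays lay above both WT arrays in 24 of the 28 (30.2% of all genes did so). Fitted on set 1 alone 18 rose and 1 fell (14% of all genes rose and 17.9% fell in that fit), and without 2 doubted arrays of set 2, 13 rose and 1 fell (14% and 19.3%). Mx1, which blocks viral replication, lay at 12.40 and 12.45 in KO and 9.81 and 9.99 in WT. Its difference of 2.52 ± 1.71 had an adjusted p of 0.292 in the 24-array fit and 0.00142 on set 1, where the SE was 0.32. Isg20, a nuclease that degrades RNA, lay at 12.90 and 12.85 in KO and 10.56 and 10.52 in WT (2.33 ± 1.12, adjusted p = 0.132, and 0.00156 on set 1). Rsad2 was at 13.86 and 13.79 in KO, near the top of the scale, and 12.53 and 12.66 in WT (1.23 ± 0.95, adjusted p = 0.362). For Ifit1 the levels were 12.71 and 12.72 in KO and 11.10 and 11.24 in WT (1.54 ± 1.20, adjusted p = 0.368). The 2 that rose in the 24-array fit were Oasl1 (2.58 ± 0.77, adjusted p = 0.0221) and Oas1b (2.54 ± 0.60, adjusted p = 0.00694), both of the oligoadenylate synthetase family. Ifitm2, an inhibitor of viral entry, went the other way. It lay at 10.53 and 10.62 in KO and 12.01 and 12.05 in WT and fell by 1.45 ± 0.36 (adjusted p = 0.00829). The call of Oasl1 ended without any 1 of the 4 arrays, at 2.48 to 2.69. Calls ended for Oas1b and Ifitm2 without KO replicate 1 (2.36 and -1.41).

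Interferon-inducible GTPases, which attack vacuoles that hold pathogens, lay higher in KO. Both KO arrays lay above both WT arrays in 9 of 9 (30.2% of all genes did so), with a median of 1.76. In the 24-array fit 2 rose (0, 0, 0 and 0), and 9 rose on set 1 alone and 9 without the doubted arrays (14% of all genes rose in each of these fits). Gbp2 lay at 12.71 and 12.52 in KO and 9.84 and 9.93 in WT, a rise of 2.73 ± 0.98 (adjusted p = 0.0494), and Gbp3 rose by 2.85 ± 0.94 (adjusted p = 0.0346). Iigp1 was at 12.44 and 12.27 in KO and 10.57 and 10.62 in WT (1.76 ± 1.51, adjusted p = 0.418, and 0.00181 on set 1). Slfn1, of the growth-regulating Schlafen family, rose by 2.14 ± 0.42, from 9.10 and 8.76 in WT to 10.91 and 11.24 in KO, and Slfn4 by 3.96 ± 1.03. Of 4 measured Schlafen genes 2 rose (1, 2, 2 and 1). Of 12 measured TRIM and PARP genes 2 rose (1, 1, 1 and 1), and 10 on set 1 alone. The ADP-ribosyltransferase gene Parp3 lay at 9.01 and 8.79 in KO and 5.84 and 5.12 in WT, a rise of 3.42 ± 0.60 (adjusted p = 0.00116), and the antibody receptor gene Trim21 rose by 2.04 ± 0.72. Uba7, which activates ISG15, was at 10.73 and 10.95 in KO and 9.71 and 9.89 in WT (1.04 ± 0.50, adjusted p = 0.135, and 0.00488 on set 1). The calls of Gbp2, Gbp3 and Trim21 ended without any 1 of the 4 arrays, at 2.63 to 2.82, 2.75 to 2.95 and 2.01 to 2.06. Also lost was that of Gbp2 with an additive term for set (3.07), without the filter (2.73), with the mean of probe sets (2.66) and with quantile normalization (2.67), that of Gbp3 with an additive term for set (2.80) and that of Trim21 with the culture as a random block (2.04), without the filter (2.04) and with the mean of probe sets (2.05). Calls ended for Slfn4 without KO replicate 1 (3.84) and without WT replicate 2 (3.55).

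A list taken from other cells was read beside these. In BV-2 cells given a control siRNA, 35 genes were induced by at least 1 log2 unit after 24 h of IFN-b. In KO against WT microglia at 24 h 6 of these 35 rose, which is 17.1% against 11.3% of all genes. With any 1 of the 4 arrays left out, the share that rose was below that of all genes in the same fit. Of the 35, 1 fell, Usp18, and the median was 0.85. Both KO arrays lay above both WT arrays in 32 (30.2% of all genes did so). On set 1 alone 23 rose and 1 fell (14% and 17.9% of all genes).

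Chemokines were among the strongest increases. Of 17 measured chemokines 5 rose (4, 6, 4 and 5) and the others were not called, with a median of 1.15 against -0.07 over all genes, and 7 rose on set 1 alone. Cxcl10, like Cxcl11 a ligand of the receptor Cxcr3 on T cells, lay at 12.81 and 12.83 in KO and 8.24 and 9.10 in WT, a rise of 4.15 ± 1.06 or 17.8-fold (adjusted p = 0.0102). The monocyte attractants Ccl7 and Ccl2 followed. Ccl7 rose by 5.10 ± 0.99, from 7.62 and 6.90 to 12.71 and 12, and Ccl2 by 4.15 ± 0.74, from 8.90 and 8.29 to 12.81 and 12.67. Ccl3 rose by 1.78 ± 0.34. Ccl5, at 13.23 and 13.13 in KO and 12.47 and 12.61 in WT, and Cxcl9, at 11.13 and 10.26 in KO and 10.05 and 9.48 in WT, were not called (0.63 ± 0.60 and 0.93 ± 1.35). Calls ended for Cxcl10 without KO replicate 1 (4.17) and without WT replicate 1 (3.72).

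Genes that restrain cytokine signals were also far higher without Usp18. Of 4 measured SOCS genes 3 rose (2, 3, 2 and 2), with a median of 3.70. Socs2 lay at 9.60 and 9.48 in KO and 4.48 and 4.09 in WT (5.26 ± 0.44, adjusted p = 1.07e-05). Socs1, the main inhibitor of the kinases below the interferon receptors, lay at 9.71 and 9.83 in KO and 5.07 and 5.18 in WT (4.65 ± 0.95, 25.1-fold, adjusted p = 0.00281). Socs3 rose by 2.75 ± 0.74 (adjusted p = 0.0132). Cish lay at 5.72 and 5.64 in KO and 5.28 and 5.62 in WT and was not called, though the groups did not overlap. Calls ended for Socs3 without KO replicate 1 (2.25), without WT replicate 1 (2.92) and without WT replicate 2 (2.59).

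Promoters of 3 of these genes are shown because each holds the core of the interferon-stimulated response element, searched as GAAA, any bases NN and then GAAA, on both strands. They are the 250 bases before the start site, from RefSeq on GRCm38.p6, 5′ to 3′ along the gene, with the matches in capitals. The Cxcl10 promoter is chr5:92348890-92349139 on the minus strand, with a match 213 bases before the start. That of Socs1 is chr16:10785537-10785786 on the minus strand, with overlapping matches 83 and 77 bases before the start. That of Gbp2 is chr3:142620413-142620662 on the plus strand, with a match 59 bases before the start, which reads on the other strand.
Cxcl10: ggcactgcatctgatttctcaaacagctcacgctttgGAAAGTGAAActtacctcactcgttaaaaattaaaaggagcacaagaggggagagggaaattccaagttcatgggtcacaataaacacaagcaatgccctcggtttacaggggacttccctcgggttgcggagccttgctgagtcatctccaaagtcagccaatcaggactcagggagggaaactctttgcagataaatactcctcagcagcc
Socs1: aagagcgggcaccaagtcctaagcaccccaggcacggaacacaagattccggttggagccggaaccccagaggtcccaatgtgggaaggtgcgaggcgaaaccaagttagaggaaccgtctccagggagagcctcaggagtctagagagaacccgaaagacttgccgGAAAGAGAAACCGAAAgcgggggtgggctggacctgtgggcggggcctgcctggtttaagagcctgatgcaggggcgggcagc
Gbp2: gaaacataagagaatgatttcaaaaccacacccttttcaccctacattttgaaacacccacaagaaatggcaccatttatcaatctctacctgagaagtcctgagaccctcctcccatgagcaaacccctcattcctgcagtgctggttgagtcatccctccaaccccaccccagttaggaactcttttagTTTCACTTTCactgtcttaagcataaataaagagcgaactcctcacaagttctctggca

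Promoter sequences, here with 50 bases after the start, were found for 6516 of the 7960 genes tested. The core was present in 3.36% of promoters of genes tested, and in 3.44% of all 32851 promoters of the table. Among genes that rose it was in 5.08% and among genes that fell in 2.62%. It was in 42.9% of 28 promoters of antiviral genes, 75% of 8 of GTPases, 18.2% of 11 of chemokines and 39% of 41 of the BV-2 list. None of the 14 promoters of the NF-kB list held it. The core of the gamma-activated site, TTCNNNGAA, which can overlap the first motif, was in 6.5% of promoters of genes tested, 7.05% of those that rose and 8.14% of those that fell. By list it was in 28.6% of promoters of antiviral genes, 37.5% of GTPases, 9.09% of chemokines, 21.4% of the NF-kB list and 19.5% of the BV-2 list. Of 3 promoters of SOCS genes 2 held it, and 1 held the first motif. A match describes letters in this window and is not a measured site.

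Among 19 receptor and JAK-STAT genes 7 rose (1, 4, 3 and 1) and 2 fell (1, 2, 2 and 1). Tyk2, a kinase of the IFN-b receptor, lay at 10.14 and 10.07 in KO and 8.33 and 8.54 in WT (1.67 ± 0.29, adjusted p = 0.00104). Jak2 rose by 1.70 ± 0.42, and the transcription factors Stat3 and Irf1 by 1.73 ± 0.52 and 1.87 ± 0.59. Both genes that fell encode receptor subunits. Ifngr1, of the interferon gamma receptor, lay at 8.04 and 8.13 in KO and 10.05 and 9.90 in WT and fell by 1.89 ± 0.41 (adjusted p = 0.00401). Ifnar2, the subunit that USP18 binds, lay at 9.57 and 9.56 in KO and 10.24 and 10.30 in WT and fell by 0.70 ± 0.18 (adjusted p = 0.00934), and Ifnar1 was at 7.50 and 7.40 in KO and 8.10 and 8.19 in WT (-0.70 ± 0.29, adjusted p = 0.0863). Stat2 had a difference of 1.17 ± 0.88 that was not called (adjusted p = 0.349, and 0.00209 on set 1). The call of Irf1 ended without any 1 of the 4 arrays, at 1.76 to 1.98. Calls ended for Jak2 and Ifnar2 without KO replicate 1 (1.69 and -0.71) and without WT replicate 2 (1.68 and -0.68), and for Stat3 without KO replicate 1 (1.45), without WT replicate 1 (1.98) and without WT replicate 2 (1.47).

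Single genes of Toll-like receptor sensing were called in both directions. Tlr3, the endosomal receptor for double-stranded RNA, lay at 10.92 and 10.93 in KO and 8.05 and 8.07 in WT and rose by 2.87 ± 0.98 (adjusted p = 0.0395). Tlr2, a surface receptor for bacterial lipoproteins, fell by 1.31 ± 0.38, from 9.72 and 9.24 to 8.16 and 8.19. Tlr4 was at 8.79 and 8.69 in KO and 8.43 and 8.15 in WT, and Tlr7 at 11 and 11.06 in KO and 10.80 and 10.90 in WT, neither of them called. The DNA receptor Tlr9 rose by 1.10 ± 0.27, and the co-receptor Cd14 fell by 1.01 ± 0.35. In all, of 10 genes 2 rose (0, 1, 0 and 1) and 2 fell (0, 0, 0 and 1), near the 11.3% and 17.7% of all genes. Of 9 cytosolic sensors and adaptors 1 fell (1, 0, 0 and 1), the adaptor gene Mavs (by 1.11 ± 0.31), and the others were not called, while on set 1 alone 5 rose and 1 fell. Ifih1, a sensor of viral RNA, was at 12.31 and 12.15 in KO and 11.02 and 11.07 in WT (1.18 ± 0.94, adjusted p = 0.379, and 0.00294 on set 1). The calls of Tlr3 and Cd14 ended without any 1 of the 4 arrays, at 2.85 to 2.88 and -1.21 to -0.81. Also lost was that of Tlr3 without the filter (2.87) and that of Cd14 with the culture as a random block (-1.01), without the filter (-1.01) and with centred arrays (-0.95). Calls ended for Tlr2 without KO replicate 1 (-1.30), without KO replicate 2 (-1.33) and without WT replicate 1 (-1.07), and for Tlr9 without KO replicate 1 (1.08) and without WT replicate 1 (1.07). Calls ended for Mavs without KO replicate 2 (-0.81) and without WT replicate 1 (-0.98).

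Cytokines and other inflammatory genes were widely raised. Of 15 measured members 10 rose (7, 8, 7 and 8) and 1 fell (0, 1, 0 and 0), with a median of 2.90. The cytokine Il6 lay at 8.55 and 7.41 in KO and 2.86 and 3.03 in WT and rose by 5.04 ± 1.03 (adjusted p = 0.00291). Ptgs2, the inducible prostaglandin synthase, lay at 8.56 and 7.09 in KO and 3.31 and 2.69 in WT (4.83 ± 0.73, adjusted p = 0.000527). Both had their higher value in KO replicate 1. Il1rn, which blocks the interleukin 1 receptor, lay at 12.17 and 12.02 in KO and 6.80 and 7.17 in WT (5.11 ± 0.67, adjusted p = 0.000246). Acod1, the enzyme that makes itaconate, lay at 12.53 and 12.54 in KO and 8.71 and 8.71 in WT, with little spread, and rose by 3.83 ± 0.40 (adjusted p = 7.4e-05). Il15ra, which presents interleukin 15, rose by 3.43 ± 0.53, the macrophage growth factor Csf1 by 3.23 ± 0.56 and Tnf by 1.31 ± 0.39. Il10, which restrains macrophages, rose by 3.21 ± 0.98, and Il18bp, which binds and blocks interleukin 18, by 2.73 ± 0.55. The 1 member that fell was the growth factor Tgfb1 (by 1.24 ± 0.42). Slc7a2, a carrier of arginine, rose by 2.07 ± 0.42 and Nos2, which makes nitric oxide, by 1.18 ± 0.36, and they and Acod1 were those called in a list of 6 itaconate and arginine genes, in which 3 rose (2, 2, 2 and 3). The call of Il10 ended without any 1 of the 4 arrays, at 2.89 to 3.53. Calls ended for Tnf without KO replicate 1 (1.11), without WT replicate 1 (1.40), without WT replicate 2 (1.22) and with an additive term for set (0.69), and for Tgfb1 without KO replicate 1 (-0.82), without WT replicate 1 (-1.48), without WT replicate 2 (-1.01), on set 1 alone (-1.24) and without the filter (-1.24). Calls ended for Nos2 without KO replicate 1 (1.20), without KO replicate 2 (1.17), without WT replicate 1 (0.79) and on set 1 alone (1.18).

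Targets and regulators of NF-kB rose as well. Of 13 measured, 8 rose (5, 7, 6 and 5) and the others were not called, with a median of 1.12. With an additive term for set 4 rose. Traf1, an adaptor of tumour necrosis factor receptors, lay at 8.64 and 7.76 in KO and 4.01 and 4.17 in WT (4.11 ± 0.72, adjusted p = 0.00114). Birc3, an inhibitor of apoptosis, rose by 1.73 ± 0.21, the inhibitors of NF-kB Nfkbie and Nfkbia by 1.62 ± 0.35 and 0.76 ± 0.20, the subunit Rel by 2.39 ± 0.60 and the adhesion molecule Icam1 by 1.56 ± 0.41. Relb lay at 7.80 and 7.91 in KO and 7.36 and 7.46 in WT and was not called. Of 10 immediate early genes 4 rose (3, 3, 3 and 3), namely the phosphatase gene Dusp1 (2.28 ± 0.49), Egr1 (2.70 ± 0.89), Junb (1.40 ± 0.28) and Jun (1.29 ± 0.31), but Fos lay at 9.79 and 9.59 in KO and 10.26 and 10.10 in WT. The call of Egr1 ended without any 1 of the 4 arrays, at 2.55 to 2.85. Calls ended for Nfkbie with an additive term for set (1.02), and for Nfkbia without KO replicate 1 (0.57), without WT replicate 2 (0.61) and with an additive term for set (0.47). Calls ended for Rel without KO replicate 1 (1.94) and without WT replicate 2 (2.11), and for Icam1 without KO replicate 2 (1.14), without WT replicate 1 (1.42) and with an additive term for set (0.97).

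Surface molecules that talk to T cells moved in both directions. Of 9 measured co-stimulation and checkpoint genes 5 rose (3, 4, 3 and 3) and 1 fell (1, 1, 1 and 1). Cd274, which encodes the checkpoint ligand PD-L1, lay at 11.91 and 11.79 in KO and 7.86 and 8.26 in WT (3.80 ± 0.67, adjusted p = 0.00124). Tnfsf10, the death ligand TRAIL, lay at 9.38 and 9.15 in KO and 5.10 and 5.54 in WT (3.95 ± 0.89, adjusted p = 0.00507). The co-stimulators Cd40 and Cd86 rose by 2.87 ± 0.77 and 2.52 ± 0.70, and Icosl by 1.13 ± 0.24. Vsir, which encodes the checkpoint protein VISTA, fell by 3.53 ± 0.55, from 10.18 and 10.55 in WT to 6.57 and 7.09 in KO (adjusted p = 0.000633). The call of Cd86 ended without any 1 of the 4 arrays, at 2.35 to 2.69. Calls ended for Cd40 without KO replicate 1 (2.78), without WT replicate 1 (3.02), without WT replicate 2 (2.72) and with an additive term for set (2.49).

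Few genes of antigen presentation were called. Of 13 class I genes 1 rose (0, 0, 0 and 0), the peptide transporter gene Tap2 (1.57 ± 0.55, adjusted p = 0.045), with a median of 0.52, and on set 1 alone 8 rose. Both KO arrays lay above both WT arrays in 12 of the 13 (30.2% of all genes did so). Without the doubted arrays 7 rose (14% of all genes rose in that fit and in that of set 1). Tap1 was at 11.34 and 11.34 in KO and 10.07 and 10.31 in WT (1.15 ± 0.80, adjusted p = 0.307, and 0.00408 on set 1). The immunoproteasome subunit Psmb8 was at 12.46 and 12.45 in KO and 11.89 and 11.77 in WT. Of 7 class II genes 2 rose (1, 0, 0 and 2), H2-DMa (0.72 ± 0.25) and H2-Oa (1.31 ± 0.40), which regulate peptide loading, with a median of 0.95. Cd74, the invariant chain, lay at 8.58 and 8.22 in KO and 6.82 and 8.08 in WT and was not called. The calls of Tap2 and H2-DMa ended without any 1 of the 4 arrays, at 1.43 to 1.72 and 0.65 to 0.79. Also lost was that of Tap2 with an additive term for set (1.50) and without the filter (1.57) and that of H2-DMa without the filter (0.72) and with a trended, robust prior (0.72). Calls ended for H2-Oa without KO replicate 2 (0.68), without WT replicate 1 (1.01) and on the 4 arrays alone (1.31).

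**Figure D3:**
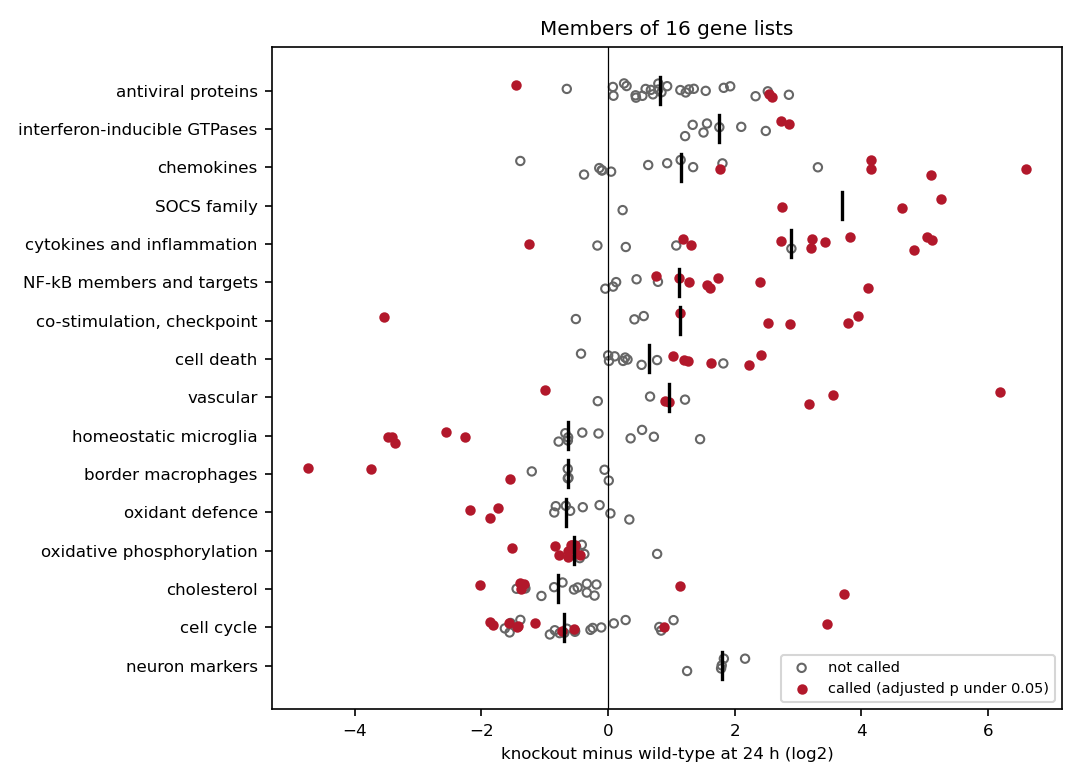
Change between KO and WT at 24 h (log2) for the measured members of 16 gene lists. Filled points are called genes, open points genes not called, the bar is the median of each list, and vertical scatter separates points. SOCS and inflammatory genes have the highest medians (3.70 and 2.90). Oxidative phosphorylation genes have a median of -0.54 and range from -1.52 to 0.78, with 1 of 16 above 0.

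Genes of cell death rose in part. Of 16 measured, 6 rose (4, 3, 2 and 4) and the others were not called, with a median of 0.65. The inflammatory caspases Casp4 and Casp1 rose by 2.42 ± 0.40 and 1.63 ± 0.35. Casp4 lay at 12.01 and 11.91 in KO and 9.43 and 9.67 in WT. The death receptor gene Fas rose by 2.23 ± 0.51, from 4.29 and 4.98 to 6.85 and 6.87. The initiator caspase Casp8 rose by 1.26 ± 0.40. Of 20 genes of endoplasmic reticulum and integrated stress 6 rose (1, 4, 3 and 3) and 2 fell (0, 0, 0 and 0). Ppp1r15a, which ends the stress block of translation, rose by 1.33 ± 0.24, the stress factor Ddit3 by 1.69 ± 0.40 and its target Trib3 by 2.55 ± 0.69. The chaperone Hspa5 lay at 11.80 and 11.92 in KO and 11.68 and 11.74 in WT and was not called, and the genes that fell were Herpud1 (by 1.07 ± 0.33) and Sdf2l1 (by 0.79 ± 0.26), of protein quality control. The calls of Casp8, Herpud1 and Sdf2l1 ended without any 1 of the 4 arrays, at 1.23 to 1.28, -1.22 to -0.91 and -0.87 to -0.71. Also lost was that of Herpud1 with the mean of probe sets (-0.71) and that of Sdf2l1 with centred arrays (-0.73). Calls ended for Fas without WT replicate 1 (1.88), and for Ddit3 without KO replicate 1 (1.58) and without WT replicate 1 (1.62). Calls ended for Trib3 without KO replicate 1 (2.21) and without WT replicate 2 (2.34).

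Several genes of a vascular list were higher in KO. Like the other lists by function, it was chosen with earlier results of these data known, so its count does not test a vascular theme. Of 9 measured, 5 rose (3, 4, 3 and 4) and 1 fell (0, 0, 0 and 0). Besides Aplnr, the vascular growth factor receptor Kdr lay at 9.68 and 9.73 in KO and 6.06 and 6.24 in WT (3.55 ± 0.42, adjusted p = 0.000146), and the vasoconstrictor Edn1 at 8.44 and 7.24 in KO and 4.74 and 4.58 in WT (3.18 ± 0.66). The junction protein Cdh5 rose by 0.96 ± 0.29 and Eng by 0.91 ± 0.25, and Nrp1 fell by 0.99 ± 0.33. Of 7 measured fibroblast and endothelial markers 2 rose (1, 2, 1 and 1), Kdr and Cdh5, and the list had a mean level of 5.52 and 5.74 on the KO arrays and 4.90 and 4.50 on the WT arrays. The part of such cells was not tested. Among 15 matrix and adhesion genes 4 rose (2, 2, 1 and 3) and 2 fell (0, 1, 0 and 1). Thbs1, which encodes thrombospondin 1, lay at 9.81 and 10.56 in KO and 6.15 and 6.27 in WT (3.97 ± 0.68, adjusted p = 0.0011), the collagenase Mmp13 rose by 3.23 ± 1.01 and the integrins Itga4 and Itga5 by 0.98 ± 0.35 and 1.75 ± 0.42. The integrins Itgav and Itgb5 fell by 1.09 ± 0.35 and 2.09 ± 0.50. The calls of Nrp1, Mmp13, Itga4 and Itgav ended without any 1 of the 4 arrays, at -1.13 to -0.86, 3.0 to 3.47, 0.84 to 1.13 and -1.30 to -0.87. Also lost was that of Nrp1 with an additive term for set (-0.58) and with the culture as a random block (-0.99), that of Mmp13 with an additive term for set (2.56) and that of Itga4 with an additive term for set (0.83), with the culture as a random block (0.98), without the filter (0.98), with the mean of probe sets (0.59), with the replicate block (0.98) and with a trended, robust prior (0.98). Calls ended for Cdh5 without WT replicate 1 (1.05) and without WT replicate 2 (0.86), and for Eng without KO replicate 1 (0.97), without KO replicate 2 (0.85), without WT replicate 1 (0.80) and with an additive term for set (0.67). Calls ended for Itga5 without WT replicate 1 (1.48), and for Itgb5 without KO replicate 1 (-1.79) and without WT replicate 1 (-2.03).

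Hpgd, the enzyme that inactivates prostaglandins, had the largest measured decrease. It lay at 4.50 and 5.45 in KO and 10.81 and 11.43 in WT and fell by 6.15 ± 1.33 or 70.9-fold (adjusted p = 0.00395). Both KO values lay below the lowest array median of 5.62, where the size of a decrease may not be resolved. Ptges, which makes prostaglandin E2 from the product of Ptgs2, rose by 1.39 ± 0.31. Alox5ap, needed for leukotriene synthesis, fell by 1.79 ± 0.50. Ltc4s, of the same pathway, fell by 1.34 ± 0.35. So in the list of 7 prostaglandin and leukotriene genes 2 rose (2, 2, 2 and 2) and 3 fell (1, 2, 2 and 2). Before treatment Hpgd lay at 5.68 and 10.75 in KO, so the KO cultures differed from each other there, and at 11.29 and 11.94 in WT. Calls ended for Ptges with an additive term for set (0.85), and for Alox5ap without KO replicate 1 (-1.96), without KO replicate 2 (-1.62), without WT replicate 1 (-1.56) and with an additive term for set (-1.31). Calls ended for Ltc4s without KO replicate 1 (-1.29) and without WT replicate 2 (-1.26).

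Lpl, the lipase that releases fatty acids from lipoproteins, fell with little spread. It lay at 8.32 and 8.24 in KO and 12.99 and 13.20 in WT and fell by 4.81 ± 0.35 or 28.1-fold (adjusted p = 3.5e-06). It was the called gene in both the markers of activated microglia, where of 13 1 fell (1, 1, 1 and 1), and the genes of lipid handling, where of 12 1 fell (1, 1, 1 and 1). Apoe lay at 13.64 and 13.68 in KO and 13.97 and 13.87 in WT, and the fatty acid carrier Fabp5 at 11.77 and 12.11 in KO and 12.07 and 12.39 in WT, neither called. Of 18 cholesterol genes 2 rose (1, 2, 1 and 2) and 4 fell (1, 4, 2 and 2), near the 11.3% and 17.7% of all genes, with a median of -0.79. Ch25h, which makes the antiviral 25-hydroxycholesterol, lay at 13.27 and 12.86 in KO and 9.59 and 9.09 in WT (3.72 ± 0.47, adjusted p = 0.000198). The sterol carrier Stard4 fell by 2.02 ± 0.35, the cholesterol exporter Abca1 by 1.32 ± 0.36, and the synthesis enzymes Dhcr7 and Mvd by 1.39 ± 0.46 and 1.37 ± 0.35. The exporter Abcg1 rose by 1.14 ± 0.30. Calls ended for Abca1 without KO replicate 1 (-1.09) and without WT replicate 2 (-1.18), and for Abcg1 and Mvd without KO replicate 1 (1.04 and -1.05) and without WT replicate 1 (0.89 and -1.28). Calls ended for Dhcr7 without KO replicate 1 (-1.0), without WT replicate 1 (-1.51), without WT replicate 2 (-1.26) and on set 1 alone (-1.39).

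Resting microglia and the macrophages of the brain's borders each have their own markers, and some of both fell. Of 15 homeostatic markers 5 fell (3, 5, 5 and 4), with a median of -0.63, and of 9 border macrophage markers 3 fell (2, 3, 2 and 3), and the others of both lists were not called. The fractalkine receptor Cx3cr1, through which neurons address microglia, lay at 6.35 and 6.13 in KO and 10.16 and 9.26 in WT and fell by 3.47 ± 0.50 (adjusted p = 0.000394). The Fc receptor-like gene Fcrls fell by 3.36 ± 0.28, from 11.71 and 11.33 to 8.68 and 7.64. Gpr34, a receptor for lysophosphatidylserine, fell by 3.41 ± 0.47 to 2.77 and 2.55, below the lowest array median. Trem2, a lipid-sensing receptor, fell by 2.56 ± 0.67 and the transcription factor Mef2c by 2.26 ± 0.52. The mannose receptor Mrc1 lay at 4.06 and 3.48 in KO and 8.50 and 8.51 in WT and fell by 4.74 ± 0.67 (adjusted p = 0.000374), and the scavenger receptors Stab1 and Marco fell by 3.75 ± 0.70 and 1.54 ± 0.36. P2ry12 and Csf1r, given above, were not called. Calls ended for Trem2 without KO replicate 1 (-2.05) and without WT replicate 2 (-2.26), and for Mef2c without KO replicate 1 (-1.93). Calls ended for Marco without KO replicate 1 (-1.46) and without WT replicate 1 (-1.21).

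Other receptors and secreted proteins were among the 20 largest decreases. Cd93, a receptor linked to clearance of dying cells, lay at 4.96 and 4.30 in KO and 9.20 and 8.78 in WT and fell by 4.36 ± 0.34 (adjusted p = 5.54e-06). Ligands of the Tyro3, Axl and Mertk receptors bridge to dying cells, and of these Gas6 fell by 3.23 ± 0.71 and Pros1 fell by 3.61 ± 0.69. The Wnt inhibitor Dkk2 fell by 3.47 ± 0.36, the C-type lectin Clec4b1 fell by 4.02 ± 0.50 and Cd302 fell by 3.21 ± 0.41. Among the others were the ribonuclease Rnase4, which fell by 3.90 ± 0.90, the iron exporter Slc40a1, which fell by 3.31 ± 0.84, and the growth factor binder Igfbp4, which fell by 3.39 ± 1.0. The stress-induced Sesn1 fell by 4.38 ± 0.70 and the receptor adaptor Arrb1 fell by 3.58 ± 0.56. Of 12 complement genes 1 fell (1, 1, 1 and 1), the receptor C5ar1 (by 1.80 ± 0.37). Calls ended for Gas6 and Rnase4 without KO replicate 1 (-2.84 and -3.32), and for Slc40a1 without KO replicate 1 (-2.86) and without WT replicate 2 (-2.91). Calls ended for Igfbp4 without KO replicate 1 (-2.93), without WT replicate 1 (-3.61) and without WT replicate 2 (-3.16).

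Most measured genes of oxidative phosphorylation fell slightly. Of 16 oxidative phosphorylation genes 10 fell (0, 6, 0 and 5) and the others were not called, with a median of -0.54, and both KO arrays lay below both WT arrays in 15 (41.3% of all genes did so). The ATP synthase gene Atp5g1 lay at 7.66 and 8.08 in KO and 9.58 and 9.19 in WT and fell by 1.52 ± 0.36, the complex I gene Ndufb5 by 0.84 ± 0.20 and the complex III gene Uqcrfs1 by 0.58 ± 0.15. On set 1 alone 6 fell (17.9% of all genes fell in that fit). The remaining list member was higher on both KO arrays, by 0.78. In glycolysis, where 2 rose (2, 2, 2 and 2) and 1 fell (1, 2, 1 and 1) of 11, the phosphofructokinase Pfkp rose by 2.65 ± 0.33, from 7.41 and 7.84 to 10.25 and 10.28, and the hexokinases parted, with Hk1 higher by 1.29 ± 0.23 and Hk2 lower by 1.20 ± 0.19. Of 11 oxidant defence genes 3 fell (1, 3, 2 and 3), haem oxygenase Hmox1 (by 1.74 ± 0.39, from 9.87 and 9.83 to 8.15 and 8.06), the glutathione synthesis gene Gclm (by 1.86 ± 0.52) and catalase, Cat (by 2.18 ± 0.48). Calls ended for Gclm, Atp5g1, Ndufb5 and Uqcrfs1 without KO replicate 1 (-1.45, -1.31, -0.66 and -0.57) and without WT replicate 1 (-1.50, -1.32, -0.79 and -0.55), and for Cat without KO replicate 1 (-1.91).

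Of 29 cell cycle genes 2 rose (2, 2, 2 and 2) and 8 fell (0, 3, 3 and 2), with a median of -0.69. The cyclin Ccnd2 rose by 3.46 ± 0.65, from 7.40 and 6.81 in WT to 10.44 and 10.68 in KO, and Ccne1 by 0.88 ± 0.21. The topoisomerase Top2a fell by 1.86 ± 0.62, the mitotic kinase Cdk1 by 1.42 ± 0.35 and the thymidine kinase Tk1 by 1.82 ± 0.39. Mki67, a marker of dividing cells, was at 5.19 and 5.29 in KO and 6.80 and 6.94 in WT (-1.63 ± 0.59, adjusted p = 0.0521, and 0.0122 on set 1). Of 11 astrocyte markers 1 fell (0, 1, 0 and 1), Glul, which makes glutamine (by 2.71 ± 0.66). The mean astrocyte level was 5.21 and 5.87 on the KO arrays and 5.91 and 5.51 on the WT arrays. That of 9 oligodendrocyte markers, not called, was 6.41 and 7.75 on the KO arrays and 7.08 and 6.32 on the WT arrays. The call of Top2a ended without any 1 of the 4 arrays, at -1.97 to -1.75. Calls ended for Ccne1 without KO replicate 2 (0.71), and for Cdk1 and Tk1 without KO replicate 1 (-1.35 and -1.47). Calls ended for Glul without KO replicate 1 (-2.54) and without WT replicate 1 (-2.66).

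The difference at 24 h was then set beside that at 6 h and before treatment, on other arrays of set 1. Samples of 1 genotype and number deviated together across times (correlations of 0.434 to 0.811). Whether the times share cultures is not in the labels. At 6 h 662 genes differed between KO and WT (8.32%) and before treatment 1336 (16.8%). Called in the same direction were 431 genes at 24 h and 6 h, which is 18.6% of the 24 h calls and 65.1% of the 6 h calls. For 24 h and 0 h the number was 723, 31.3% of the 24 h calls and 54.1% of the 0 h calls. At all 3 times 174 genes were called in 1 direction.

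The KO difference of most interferon genes was smallest at 6 h. It was smaller there than at 0 and 24 h in 22 of 28 antiviral genes (78.6%), 9 of 9 GTPases and 30 of 35 genes of the BV-2 list (85.7%), against 32.9% of all genes, with no test. Mx1 lay at 11.87 and 11.26 in KO and 3.29 and 4.18 in WT before treatment, at 12.26 and 12 in KO and 11.22 and 11.74 in WT at 6 h, and at 12.40 and 12.45 in KO and 9.81 and 9.99 in WT at 24 h. The KO arrays were high throughout, and the WT arrays were near them at 6 h and lay lower at 24 h. Not all genes did so, since Ifitm2 was lower in KO at 24 h and Ccl5 and Oas3, below, were still high in WT at 24 h. Cxcl10 in WT lay at 5.43 and 5.45 before treatment, 12.70 and 12.53 at 6 h and 8.24 and 9.10 at 24 h, and in KO at 12.63 and 12.37, 12.95 and 12.95 and 12.81 and 12.83. Over the antiviral list the median difference between KO and WT was 3.47 before treatment, 0.27 at 6 h and 0.82 at 24 h, and over the GTPases 5.62, 0.42 and 1.76, against -0.10, -0.08 and -0.07 over all genes. For the 35 genes of the BV-2 list it was 3.96, 0.42 and 0.85. From 0 to 24 h the antiviral genes changed by a median of 2.94 in WT and 0.25 in KO.

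**Figure D4:**
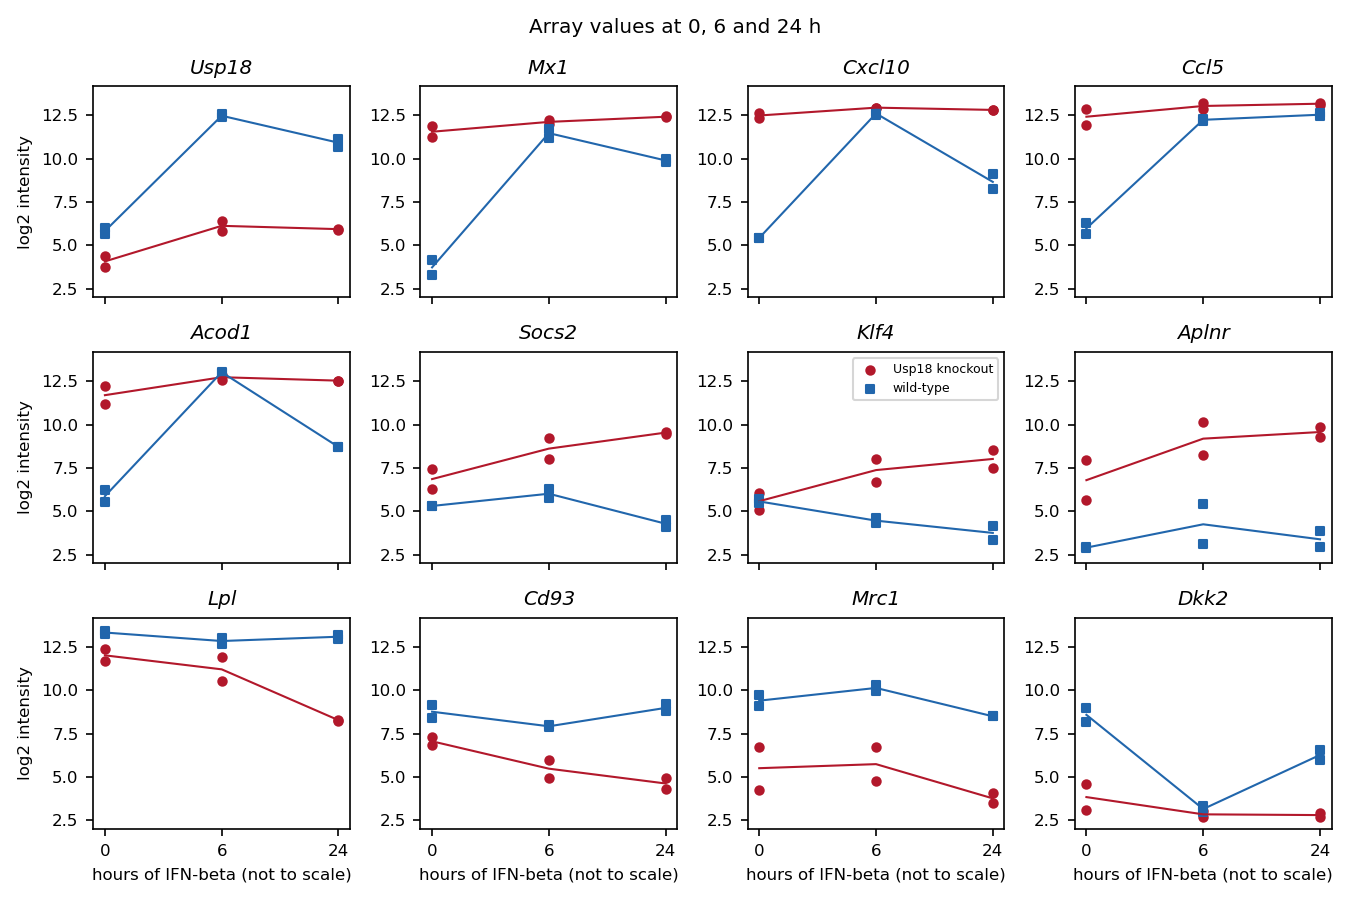
Array values (log2 intensity) of 12 genes in KO (circles) and WT (squares) microglia of set 1 at 0, 6 and 24 h of IFN-b, with lines through the means of 2 arrays and times not spaced to scale. Mx1, Cxcl10, Ccl5 and Acod1 lie above 11 in KO at every time, Klf4 overlaps before treatment, and Lpl and Cd93 are lower in KO at 24 h than at 0 h.

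Testing the change of the KO difference itself, 10 genes passed between 6 and 24 h (0.126%). Acod1 differed most among named genes. It lay at 12.60 and 12.87 in KO and 12.98 and 13.06 in WT at 6 h, and at 24 h at 12.53 and 12.54 in KO and 8.71 and 8.71 in WT (difference of differences 4.12 ± 0.57, adjusted p = 0.0126). Lpl lay at 10.52 and 11.90 in KO and 12.65 and 13.04 in WT at 6 h, and its KO difference was more negative at 24 h (-3.18 ± 0.49, adjusted p = 0.0253). Dkk2 was low in both genotypes at 6 h, 2.68 and 3.02 in KO and 2.98 and 3.33 in WT, and at 24 h lay at 2.93 and 2.69 in KO and 6.54 and 6.01 in WT (-3.16 ± 0.51). Birc3 differed by 1.64 ± 0.29. The count depended on the arrays. In limma it was 0 without KO replicate 1 (700 at an unadjusted p under 0.05), 1 without KO replicate 2, 0 without WT replicate 1 (780 at an unadjusted p under 0.05) and 2 without WT replicate 2. It was 65 without the doubted arrays of set 2. With the culture, meaning samples of 1 genotype and number across times, as a random block it was 357.

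Between 0 and 24 h the KO difference changed in 57 genes (0.716%), 17 upward and 40 downward. The downward ones included interferon-induced genes with a high level in untreated KO cells. Ccl5 lay at 12.90 and 11.96 in KO and 6.31 and 5.66 in WT before treatment, and at 13.23 and 13.13 in KO and 12.47 and 12.61 in WT at 24 h (-5.80 ± 0.85, adjusted p = 0.00838), and Slfn1 changed by -4.93 ± 0.60 (adjusted p = 0.00567). The antiviral gene Oas3 lay at 11.11 and 11.25 in KO and 4.68 and 4.86 in WT before treatment, and at 11.07 and 11.65 in KO and 10.18 and 11.12 in WT at 24 h, where the groups overlapped (-5.70 ± 0.77, adjusted p = 0.00838). Upward went Klf4, a transcription factor of macrophages and other cells, and Socs2. Klf4 lay at 6.07 and 5.09 in KO and 5.69 and 5.45 in WT before treatment, and at 7.49 and 8.55 in KO and 4.14 and 3.36 in WT at 24 h (4.25 ± 0.76, adjusted p = 0.0212). Socs2 changed by 3.71 ± 0.62 (adjusted p = 0.0167). The values for Lpl, Cd93, Fcrls and Hk2 were -3.50 ± 0.49, -2.65 ± 0.48, -2.31 ± 0.40 and -1.39 ± 0.27. The count was 21 without KO replicate 1, 10 without KO replicate 2, 8 without WT replicate 1 and 2 without WT replicate 2, and 207 without the doubted arrays. With the culture as a random block it was 461.

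Few genes were called in cells with the C61A variant, which removes the protease activity. Against their own WT samples of set 2, 2 genes were called at 24 h (0.0251%), both lower, Rasgrf1 and LOC664787, named here after their values were seen. The difference between the KO and the C61A effect passed for 247 genes (3.1%), 158 upward and 89 downward. Set and variant cannot be told apart here, since each variant was measured in 1 set. Aplnr lay at 2.69 and 3.02 in C61A and 3.05 and 2.80 in WT of set 2, and the KO effect exceeded the C61A effect by 6.26 ± 1.06 (adjusted p = 0.0102). The corresponding values were 6.20 ± 1.0 for Sectm1a, 5.23 ± 0.92 for Plac8, 4.73 ± 0.74 for Akap12, 4.55 ± 1.03 for Ptgs2 and 4.49 ± 1.01 for Traf1. Ptgs2 was high in both groups of set 2, at 10.17 and 9.99 in C61A and 10.04 and 9.56 in WT, against 3.31 and 2.69 in WT of set 1. Usp18 itself was present in C61A cells, at 13.06 and 13.09 against 12.67 and 12.69 in WT, and its effects differed by -5.38 ± 1.28 (adjusted p = 0.0371). Mrc1 also differed (-4.78 ± 0.95), but it lay at 3.12 and 2.89 in C61A and 3.01 and 2.93 in WT of set 2, below the lowest array median, where a decrease may not be resolved. Hpgd, at 2.74 and 3.10, and Cd93, at 3.64 and 3.32, were as low in WT of set 2.

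**Figure D5:**
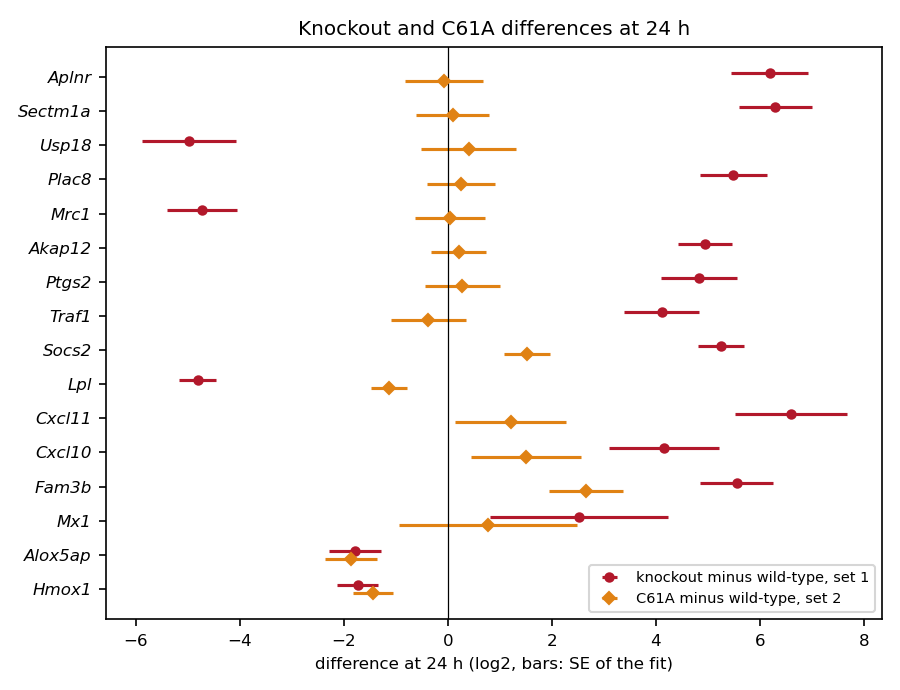
Differences at 24 h (log2) of KO against WT in set 1 (circles) and of C61A against WT in set 2 (diamonds) for 16 genes, with bars for the SE of the fit. For Aplnr the values are 6.19 and -0.07, and for Alox5ap and Hmox1 both lie below 0.

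For other genes the difference between the effects did not pass. The C61A effect was 2.65 ± 0.71 for Fam3b, 1.51 ± 1.06 for Cxcl10 and 1.79 ± 0.95 for Socs1, none of them called, and the KO effect exceeded it by 2.90 ± 1.0, 2.64 ± 1.50 and 2.86 ± 1.34 (adjusted p = 0.113, 0.337 and 0.236). For Hmox1 the C61A effect was -1.44 ± 0.39 and the difference to the KO effect -0.30 ± 0.55, and for Alox5ap -1.86 ± 0.50 and 0.07 ± 0.71. A p above the threshold does not show that the variants act alike. The count of 247 was 65 without KO replicate 1, 49 without KO replicate 2, 42 without WT replicate 1 and 64 without WT replicate 2, and 533 without the doubted arrays.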

How the data were processed

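Primary microglia and BV-2 cells were measured on Affymetrix mouse arrays (22690 probe sets). The authors deposited 1 normalized value per probe set and array. The values lie between 1.66 and 14.03, so the deposited values are taken as log2 intensities, since no source used here states the base. The tool affy is named in the submitters' processing notes, with no version. Other steps: not given in the sources used here. Of 20393 probe sets with 1 gene, those over the array median on 2 or more of the fitted arrays were kept. Where a gene had several, the one with the highest mean stood for it, which left 7960 genes.

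Group means of 24 microglia arrays in 12 groups were fitted with limma 3.58.1 in R 4.3.3 (12 residual and 2.66 prior degrees of freedom), with Benjamini-Hochberg adjustment over all genes. Tables and figures used Python 3.11.15, pandas 2.3.3 and matplotlib 3.10.9. The fit took the arrays as independent, though samples of 1 genotype and number deviated together across times. With the culture as a random block 2274 genes were called between KO and WT at 24 h. Nothing shows whether replicates came from separate animals, so p-values measure the spread between these samples. Data were simulated for the KO and WT comparison at 24 h over 7960 genes. There 50 of 100 genes changed by 1 log2 unit and 84 of 100 changed by 2 were recovered. Of 7760 unchanged genes 5 were called. The simulation drew its noise independently for each array and left most genes unchanged, while 29.1% were called in the real comparison. These figures may therefore not hold for the real data. Arrays give no count, and the number of arrays limits the precision.

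Named genes were taken from Usp18, the 20 largest called changes in each direction without overlap, and, in the gene lists, called members (up to 6 by size) and the first 4 members. For 49 of 139 called named genes another kept probe set exists, in 0 of them with the opposite sign. The members and lists were chosen with earlier results of these data known. Same-numbered KO and WT samples at 24 h did not deviate together (correlation -0.09), and whether the numbers pair them is not in the labels. Samples of 1 genotype and number did deviate together across times (0.434 to 0.811). Alternatives varied the arrays, blocks, scaling, filter, probe set rule and prior.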

Additional observations from a re-analysis of the deposited data

Results flagged for a closer look

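Values here are differences between 2 effects on the log2 scale, with the SE of the limma fit and p-values adjusted over 7960 genes. They stand out because the KO effect at 24 h differed from the effect at another time or from the C61A effect.

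Between 24 and 6 h the count was 10 genes. The KO effect was larger at 24 h by 4.12 (SE 0.567, adjusted p = 0.0126) for Acod1 and by 1.64 (SE 0.292, adjusted p = 0.0463) for Birc3. For Lpl the difference was -3.18 (SE 0.495, adjusted p = 0.0253) and for Dkk2 -3.16 (SE 0.508, adjusted p = 0.029).

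Between 24 and 0 h it was 57 genes. Genes with a high untreated KO level were among them, with -5.80 (SE 0.855, adjusted p = 0.00838) for Ccl5, -5.70 (SE 0.771, adjusted p = 0.00838) for Oas3 and -4.93 (SE 0.599, adjusted p = 0.00567) for Slfn1. Klf4 differed by 4.25 (SE 0.757, adjusted p = 0.0212) and Socs2 by 3.71 (SE 0.617, adjusted p = 0.0167). The lipase Lpl differed by -3.50 (SE 0.495, adjusted p = 0.00838), Cd93 by -2.65 (SE 0.478, adjusted p = 0.0214), Fcrls by -2.31 (SE 0.403, adjusted p = 0.0208) and the hexokinase Hk2 by -1.39 (SE 0.265, adjusted p = 0.0253).

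The KO effect differed from the C61A effect in 247 genes. Of these 30 were among the 172 genes named by the rule given above, and the 8 largest of those are given. Outside that rule, LOC664787 differed by 4.70 (SE 0.485, adjusted p = 0.000715) and Rasgrf1 by 1.78 (SE 0.313, adjusted p = 0.0113). LOC664787 was higher in KO (2.17) and lower in C61A (-2.52), each against its own WT. Aplnr differed by 6.26 (SE 1.06, adjusted p = 0.0102), Sectm1a by 6.20 (SE 0.996, adjusted p = 0.00932), Plac8 by 5.23 (SE 0.922, adjusted p = 0.0113) and Akap12 by 4.73 (SE 0.745, adjusted p = 0.00932). Ptgs2 differed by 4.55 (SE 1.03, adjusted p = 0.0327) and Traf1 by 4.49 (SE 1.01, adjusted p = 0.0321). The KO effect minus the C61A effect was -5.38 (SE 1.28, adjusted p = 0.0371) for Usp18 and -4.78 (SE 0.948, adjusted p = 0.0177) for Mrc1. Mrc1 lay below the lowest array median in both groups of set 2, where a decrease may not be resolved. Set and variant cannot be told apart in these values.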

How the results depend on the processing

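The count of genes called between KO and WT at 24 h, 2313, lay within 1.5 times of that under 13 alternatives (2138 to 2854) and was 1012 to 1478 with 1 of the 4 arrays left out. Usp18 kept its call and direction in every alternative run (-5.20 to -4.62). The count for 24 h against 6 h, 10, was 2 on set 1 alone, 65 without the doubted arrays, 2 with an additive term for set, 357 with the culture as a random block, 6 with centred arrays, 6 without the filter and 4 with the mean of probe sets, and 0 to 2 with 1 array left out. That for 24 h against 0 h, 57, was 163, 207, 44, 461, 37, 46 and 44 in that order, and 2 to 21. That for KO against C61A, 247, was 533 without the doubted arrays, 578 with that term and 158 with centred arrays, where 72.2% were higher against 64%, and 42 to 65. With the replicate block the counts were 2811 for the 24 h comparison, 76 against 6 h, 125 against 0 h and 623 against C61A, though same-numbered KO and WT samples did not deviate together. Crossing the numbers in set 1, chosen after seeing the data, gave 2739, 62 and 143. The causes of these shifts were not tested. Of 139 called named genes 69 kept their calls without each of the 4 arrays and 67 in every alternative run. Gfap, not called, turned to 0.092 with an additive term for set (-0.24 otherwise), and Xist, not called, lay between -0.96 and 4.30 with 1 array left out, negative without WT replicate 2. No scaling moved the median of all genes beyond 0.103 in size. Values below the array median may not resolve a decrease.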
